A study of Mus musculus with 4 samples.

Results

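The genes described here are 10 genes linked to the retention of T cells in tissue: the integrin alpha chains Itgae, Itga1, Itga4 and Itgal, the integrin beta chains Itgb1, Itgb2 and Itgb7, the C-type lectin Cd69, and the G protein regulators Rgs1 and Rgs2. They were taken by gene symbol, and all 10 were found among 45773 genes. Expression was measured by SMART-seq, which amplifies full-length cDNA from little RNA, from mouse tumour-infiltrating CD8 T cells in 4 libraries, 1 per group. The gain experiment used CD8 T cells of the Pmel-I line, whose transgenic receptor sees gp100, and these were transduced with MigRI (the vector) or Klf4. They were given by intravenous transfer on day 7 to Rag2 KO mice, which lack T and B cells of their own, carrying MC38-gp100 colon tumours, and GFP+ infiltrating cells were collected on day 15. In the loss experiment, MC38 tumours grew in mice labelled control (WT) or Klf4 cKO, and PD1+ CD8+ cells were collected on day 14. Each tumour began as 300000 injected cells, and a sample held 10000 to 20000 T cells. The labels give neither the number or age of the mice, nor whether mice were pooled, nor the Cre line or the deleted part of Klf4.

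With 1 library per group, no spread between animals, no test and no p-value can be given, and each difference below sets 1 library against another. The values are TPM, a length-normalized share of each library's transcripts, which keep no read depth, so no counting error is given. All 8 CD8 T cell markers were at 1 TPM or more in every library, but their summed level differed: 23790 TPM in MigRI, 5651 with Klf4, 7515 in control and 17397 in the cKO-labelled library. Klf4 itself was at 8.69, 26.0, 7.52 and 9.28 TPM in the same order, so its level does not check the cKO label, and directions drawn from that library rest on the label. Differences are of log2(TPM + 1), within an experiment only. Counts of genes use a threshold of 1 log2, which is 2-fold, on that scale with its pseudocount of 1. The median difference over the 12570 genes whose mean over the libraries was 1 TPM or more was 0.79 for Klf4 over MigRI and 0.74 for the cKO-labelled library over control. A relative difference is the difference minus that median.

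Integrins are pairs of an alpha and a beta chain that hold a cell to matrix or to other cells. Resident T cells are known for alphaE-beta7, encoded by Itgae and Itgb7, which binds E-cadherin on epithelium, and for alpha1-beta1, encoded by Itga1 and Itgb1, which binds collagen. Alpha4 pairs with beta1 to bind VCAM-1 and fibronectin or with beta7 to bind MAdCAM-1, and alphaL-beta2 (LFA-1) binds ICAMs on target cells and endothelium. CD69 keeps the egress receptor S1PR1 off the cell surface, and RGS proteins speed the shut-off of G protein signals from chemokine receptors.

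The members differed widely in level. Rgs1, Rgs2 and Cd69 had the highest means over the libraries and lay between 34.2 and 1225 TPM, although with Klf4 Rgs2 (44.7 TPM) was below Itgb1 and Itgb2. The beta chains and Itgal lay between 3.67 and 73.6 TPM. Itgae, Itga1 and Itga4 were lowest, between a listed 0 and 3.09 TPM. The epithelial residency integrin chain Itgae was thus near the floor of the tables while Cd69, often read with it, was not. Only 8 members had a mean of at least 1 TPM: Itgae (mean 0.436 TPM) and Itga4 (mean 0.954 TPM) did not, and Itga1 reached it through the loss experiment, being under 1 TPM in both gain libraries.

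**Figure D1:**
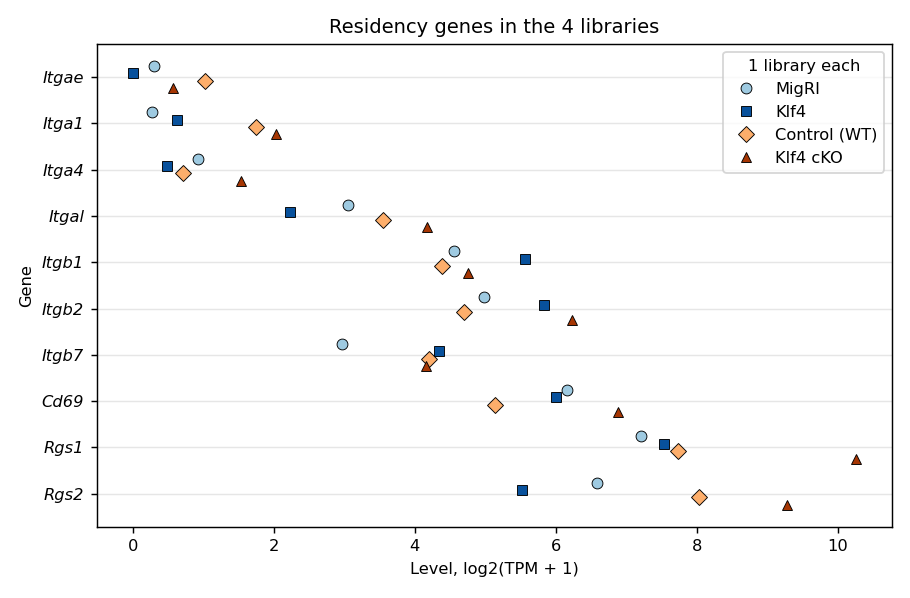
Level of each of the 10 genes as log2(TPM + 1) on the horizontal axis, with 1 symbol per library and no error bar because each group holds 1 library. Rgs1 and Rgs2 stand highest in the cKO-labelled library, at 1225 and 617 TPM, and Itgae is at 0 with Klf4.

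KLF4 belongs to a family of zinc finger factors known to bind CACCC boxes, so the promoters of the members were read from RefSeq on GRCm38.p6, which held 5 of the 10 (Rgs2, Itga4, Itgb1, Itga1 and Itgb7). The windows are the 250 bases before the start site. The 3 printed here belong to the members that were at least 2-fold higher (Itgb1 and Itgb7) or lower (Rgs2) with Klf4 as deposited. Of all genes, 43.7% were higher and 10.3% lower by that rule. Relative to the median gene, Itgb1 and Itgb7 did not reach 2-fold (0.22 and 0.58 log2), so the choice does not mark them as targets. Capitals mark CACCC or its reverse complement GGGTG.
Itgb1 (chr8:128685404-128685653, plus strand): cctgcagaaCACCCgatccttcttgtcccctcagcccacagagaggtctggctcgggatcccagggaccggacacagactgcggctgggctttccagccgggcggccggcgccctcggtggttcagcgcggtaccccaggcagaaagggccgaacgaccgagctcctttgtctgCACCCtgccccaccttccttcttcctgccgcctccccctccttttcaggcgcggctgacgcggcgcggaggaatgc
Itgb7 (chr15:102231936-102232185, minus strand): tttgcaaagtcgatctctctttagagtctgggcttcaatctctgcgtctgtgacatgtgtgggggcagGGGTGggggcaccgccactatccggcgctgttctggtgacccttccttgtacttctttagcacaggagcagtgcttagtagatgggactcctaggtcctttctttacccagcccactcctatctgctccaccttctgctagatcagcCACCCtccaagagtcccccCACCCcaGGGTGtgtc
Rgs2 (chr1:144004150-144004399, minus strand): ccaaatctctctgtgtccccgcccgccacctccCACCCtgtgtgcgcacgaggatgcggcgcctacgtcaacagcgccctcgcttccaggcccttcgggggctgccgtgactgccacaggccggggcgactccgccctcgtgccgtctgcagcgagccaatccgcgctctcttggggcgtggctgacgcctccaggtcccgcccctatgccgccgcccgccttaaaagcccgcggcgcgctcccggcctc

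CACCC was searched on both strands. The Itgb7 window held 4 matches, of which 3 lay within the last 35 bases before the start site, the Itgb1 window held 2 and the Rgs2 window 1, at 217 bases before the start. The windows of Itga4 and Itga1 held 4 and 2. The motif is common: 52.0% of 32851 promoter windows of that length held it on either strand. The longer CACACCC, which contains CACCC, was in the windows of Itga4 and Itgb7 and in 6.93% of all windows. These matches describe letters and were not tested for binding.

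Of the alpha chains, Itgae (chromosome 11, 73090583 to 73147446, plus strand, mm10) was at 0.232 TPM in MigRI, listed at 0 with Klf4, and at 1.03 TPM in control and 0.483 in the cKO-labelled library. A listed 0 can be a failed estimate, and in the Klf4 library 21 genes were listed at 0 that reached 50 TPM in another library, so no fold is given. Itga1 (chromosome 13, 114953096 to 115101964, minus strand), the collagen receptor chain, was at 0.209 and 0.547 TPM in the gain experiment and at 2.36 and 3.09 TPM in the loss experiment. Both endogenous PD1+ libraries were therefore above both Pmel-I libraries for Itgae and Itga1, although the experiments differ in host, tumour line, sort and day, which cannot be told apart. Regulatory CD4 T cells and cross-presenting dendritic cells also carry alphaE: Foxp3, the regulatory factor, was at 1.34, 0.357, 4.64 and 0.816 TPM over MigRI, Klf4, control and the cKO-labelled library, and the dendritic cell receptor Xcr1 at 0.292, 0.565, 9.82 and 4.58 TPM. These 2 genes were picked after their values were seen. Other genes of the same lists did not follow them. Of 5 CD4 T cell markers, 3 were lower in the cKO-labelled library than in control and 2 (Il2ra and Tnfrsf18) were higher. Of 7 dendritic cell markers 1 (Xcr1) was lower and 5 higher, and Clec9a was listed at 0 in MigRI, control and the cKO-labelled library. With Klf4, 3 CD4 T cell markers were lower and 2 higher than in MigRI, and 1 dendritic cell marker was lower and 6 higher. What part such cells have in the level of Itgae was not tested.

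Itga4 (chromosome 2, 79255426 to 79333123, plus strand) was at 0.888 TPM in MigRI, 0.397 with Klf4, 0.631 in control and 1.90 in the cKO-labelled library. Its exons overlap those of Cerkl on the opposite strand over 1124 nucleotides, and the kit does not mark strand, so its reads and those of Cerkl (3.46, 0.168, 1.11 and 1.16 TPM) could be mixed. The exons of Itga1 overlap those of the predicted gene Gm49395 over 685 nucleotides. The low values of both genes are uncertain for that reason too.

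Itgal (chromosome 7, 127296260 to 127335138, plus strand), the LFA-1 alpha chain, was the most abundant of the 4 alpha chains described here in every library. It was at 7.28 TPM in MigRI and 3.67 with Klf4, a difference of -0.83 log2 and a relative difference of -1.62, which turned to 1.21 against the T cell receptor constant genes Trac, Trbc1 and Trbc2. In the loss experiment it was at 10.7 TPM in control and 17.0 in the cKO-labelled library, a difference of 0.62 and a relative difference of -0.12, so the sign turned once the median gene was taken off. Among the 12570 genes, ranked by level within a library, Itgal moved from percentile 55.2 in MigRI to 23.9 with Klf4, and from 71.7 to 67.8 in the loss experiment.

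Of the beta chains, Itgb7 (chromosome 15, 102215995 to 102231944, minus strand), the partner of alphaE and alpha4, had the largest difference with Klf4: 6.79 TPM in MigRI and 19.2 with Klf4, 1.37 log2 and 0.58 relative. In control and in the cKO-labelled library it was at 17.4 and 16.9 TPM, -0.05 log2 and -0.78 relative. MigRI was thus the low library and the other 3 lay within 16.9 to 19.2 TPM. The sign of Itgb7 was the same as deposited under all 8 other settings in both comparisons, although against genes of like transcript length the gain difference was only 0.02. The other pseudocounts and filters among these 8 cannot turn a sign.

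Itgb1 (chromosome 8, 128685654 to 128733200, plus strand), the shared chain of collagen and fibronectin receptors, was at 22.4 TPM in MigRI and 46.3 with Klf4, 1.02 log2 and 0.22 relative, with the sign turned against genes of like length (-0.12). It was at 19.8 and 26.0 TPM in control and the cKO-labelled library, 0.38 log2 and -0.36 relative. The Klf4-transduced library stood above the other 3.

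Itgb2 (chromosome 10, 77530252 to 77565708, plus strand), the beta chain of LFA-1 and of the myeloid integrins, was at 30.7 TPM in MigRI and 55.8 with Klf4, 0.84 log2 and 0.05 relative, with the sign turned against genes of like length (-0.51). In the loss experiment it was at 25.0 TPM in control and 73.6 in the cKO-labelled library, 1.52 log2 and 0.78 relative. Its gain difference was thus that of the median gene, and its loss difference was above it. Against the receptor constant genes the loss difference was -0.30.

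Integrin beta chains are also made by other cells of a tumour, and markers of such cells differed between the same libraries. The 10 macrophage markers summed to 881 TPM in MigRI, 4654 with Klf4, 309 in control and 1161 in the cKO-labelled library, and 9 and 7 of the 9 at a mean of at least 1 TPM were at least 2-fold higher as deposited, none lower, where 43.7% and 38.4% of all genes were higher. The 8 fibroblast markers summed to 144, 1395, 28.9 and 251 TPM, with 8 and 5 of 8 higher and none lower. Mast cells carry beta7: their 8 markers summed to 1.91, 96.5, 0.278 and 65.6 TPM, Ms4a2 was listed at 0 throughout, and Tpsb2, Tpsab1, Mcpt4 and Fcer1a were listed at 0 in both MigRI and control. All 5 mast cell markers at a mean of at least 1 TPM were at least 2-fold higher as deposited in both comparisons. The mast cell marker Kit, under 1 TPM in every library, was lower with Klf4, at 0.890, 0.246, 0.278 and 0.814 TPM. Neutrophil markers summed to 28.1, 106, 29.3 and 3.44 TPM, and the 7 dendritic cell markers to 2.29, 8.32, 13.0 and 9.95 TPM. What part these cells have in the levels of the members was not tested. In bulk samples, fewer cells of a type and less RNA per cell cannot be told apart.

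**Figure D2:**
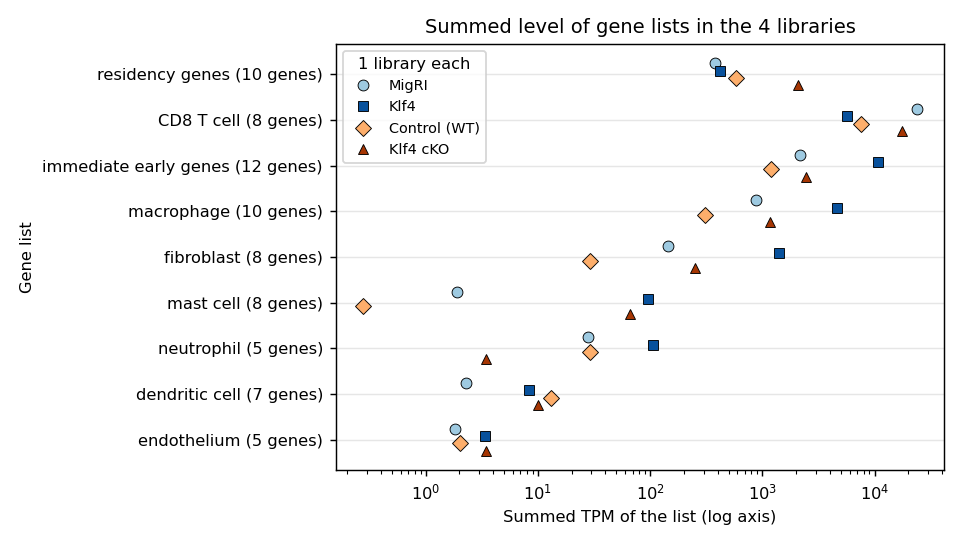
Summed TPM (log axis) of the 10 residency genes, of the immediate early genes and of marker lists, with 1 symbol per library. The macrophage, fibroblast and mast cell sums were higher with Klf4 than in MigRI and higher in the cKO-labelled library than in control, while the CD8 T cell sum was lower with Klf4 and higher in the cKO-labelled library.

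Cd69 (chromosome 6, 129267325 to 129275436, minus strand) was at 70.3 TPM in MigRI and 63.2 with Klf4, -0.15 log2 and -0.94 relative, which turned to 1.88 against the receptor constant genes. It was at 34.2 TPM in control and 117 in the cKO-labelled library, 1.75 log2 and 1.01 relative. The 2 gain libraries lay between the 2 loss libraries. Against the receptor constant genes the loss difference was -0.07, that is, Cd69 was higher by about as much as these genes were.

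Rgs1 (chromosome 1, 144242296 to 144249242, minus strand), a regulator that dampens chemokine receptor signals, was at 146 TPM in MigRI, 185 with Klf4, 211 in control and 1225 in the cKO-labelled library. The first 3 libraries lay close together and the fourth stood apart. The difference was 0.34 log2 (-0.45 relative) in the gain experiment and 2.53 log2 (1.80 relative) in the loss experiment, the largest of any member. The sign of the loss difference was the same under all 8 other settings, from 0.72 against the receptor constant genes to 2.54. The pseudocounts and filters among these could not have turned it. In rank, Rgs1 went from percentile 95.1 in control to 99.0.

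Rgs2 (chromosome 1, 143999338 to 144004161, minus strand), which acts mainly on Gq-coupled signals, was the member that was lowest with Klf4 relative to its control: 94.4 TPM in MigRI and 44.7 with Klf4, -1.06 log2 and -1.86 relative. Its rank went from percentile 87.9 to 73.9. This direction was the same under 7 of 8 other settings, of which the pseudocounts and filters cannot turn a sign. The difference turned to 0.97 against the receptor constant genes, which were lower themselves by 2.03 log2 on average. In control and in the cKO-labelled library, Rgs2 was at 261 and 617 TPM, 1.24 log2 and 0.50 relative, and -0.58 against the receptor constant genes. Both loss libraries were above both gain libraries.

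In the gain experiment, 2 of the 8 members with a mean of at least 1 TPM (Itgb1 and Itgb7) were at least 2-fold higher as deposited, where 43.7% of all such genes were, and 1 (Rgs2) was lower, against 10.3%. Relative to the median gene 0 were higher, against 21.4%, and 2 (Itgal and Rgs2) were lower, against 23.6%. The median of these members was 0.35 log2 beside 0.79 for all genes. In the loss experiment 4 (Itgb2, Cd69, Rgs1 and Rgs2) were higher as deposited, against 38.4%, and 0 lower, against 6.92%. Relative to the median gene 2 (Cd69 and Rgs1) were higher, against 12.4%, and 0 lower, against 16.2%. The median was 0.93 beside 0.74 for all genes. With so few members these shares are a description.

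**Figure D3:**
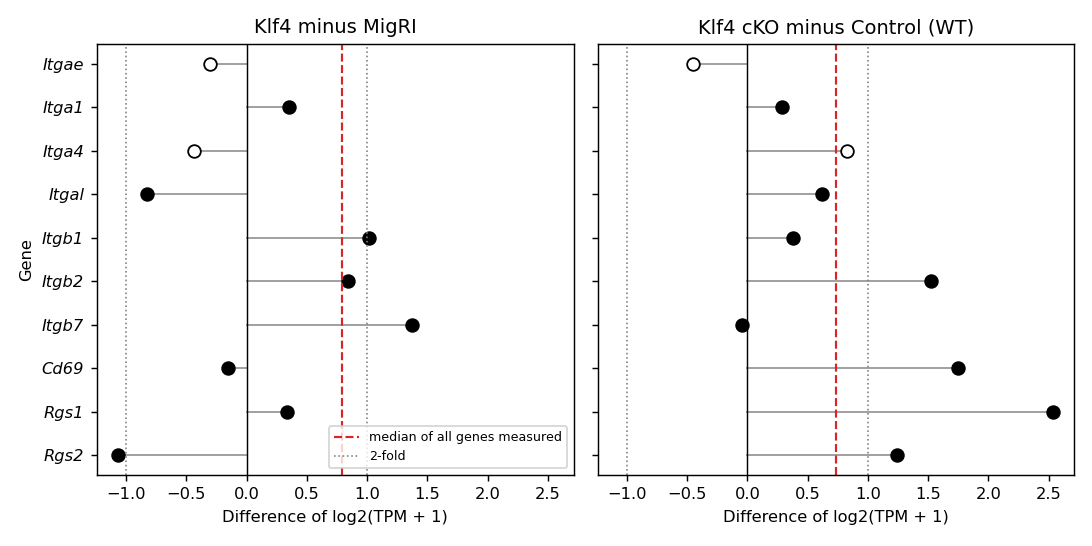
Difference of log2(TPM + 1) for each gene, left for Klf4 minus MigRI and right for Klf4 cKO minus Control (WT). Open circles are the genes below a mean of 1 TPM (Itgae was listed at 0 with Klf4), the dashed line is the median of 12570 genes (0.79 and 0.74) and dotted lines mark 2-fold. In the right panel Rgs1, Cd69, Rgs2 and Itgb2 lie right of the 2-fold line.

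Ratios of members within a library do not depend on how libraries were scaled, but they do carry any difference between libraries in how transcripts of unlike length were measured. The 9 ratios were chosen after the values had been seen, from chain partners and from pairs among Itgb1, Itgb2, Cd69, Rgs1 and Rgs2. Rgs1 over Rgs2 was 1.55 in MigRI and 4.14 with Klf4, and 0.808 in control and 1.99 in the cKO-labelled library. The balance was therefore shifted toward Rgs1 by 2.68-fold in the gain experiment and by 2.46-fold in the loss experiment. Control was the 1 library with more Rgs2 than Rgs1.

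The LFA-1 chains also differed in balance. Itgb2 over Itgal was 4.22 in MigRI and 15.2 with Klf4, a 3.61-fold shift, and 2.34 and 4.34 in control and the cKO-labelled library, a 1.86-fold shift. The sum of the 3 beta chains over the sum of the 4 alpha chains was 6.96 in MigRI, 26.3 with Klf4, 4.23 in control and 5.19 in the cKO-labelled library, so the Klf4-transduced library stood apart.

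Within the beta chains, Itgb2 made up 51.3% of the summed TPM in MigRI, 46.0% with Klf4, 40.2% in control and 63.2% in the cKO-labelled library. Itgb7 made up 11.3%, 15.8%, 28.0% and 14.5%. Itgb7 had its largest share in control and Itgb2 in the cKO-labelled library. Itgb1 over Itga1 was 107 and 84.7 in the gain libraries and 8.39 and 8.42 in the loss libraries, so this pair kept its balance within the loss experiment more closely than the other 8 did. Itga1 was only at 0.209, 0.547, 2.36 and 3.09 TPM, low values called uncertain above, so these ratios are uncertain as well.

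**Figure D4:**
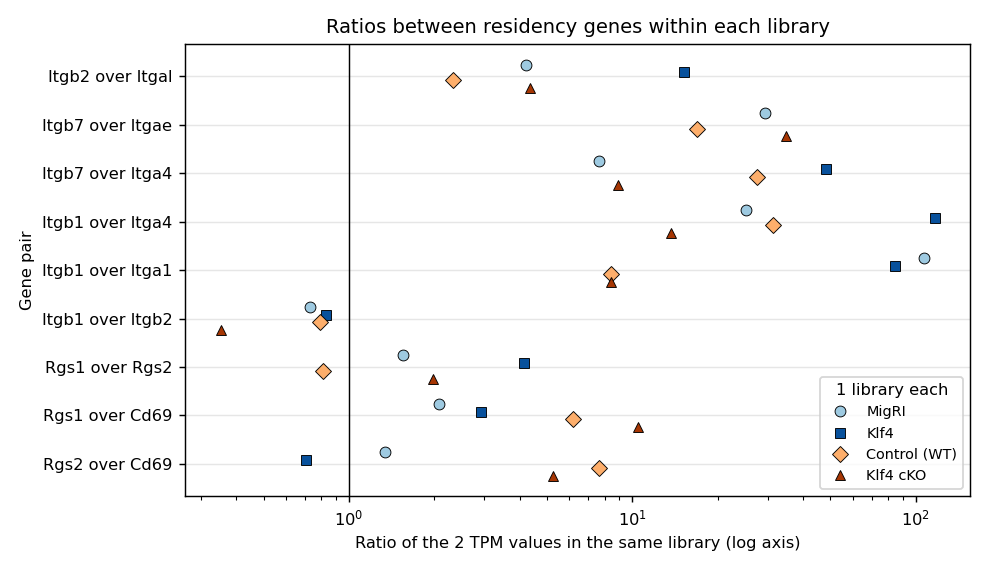
Ratio of 2 TPM values in the same library (log axis) for 9 gene pairs, with 1 symbol per library. Itgb7 over Itgae has no point for Klf4 because Itgae was listed at 0. Rgs1 over Rgs2 and Itgb2 over Itgal are higher with Klf4 than in MigRI and higher in the cKO-labelled library than in control.

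Counts in the gene lists that follow are as deposited and stand beside 43.7% of all genes at least 2-fold higher and 10.3% lower with Klf4, and 38.4% and 6.92% in the cKO-labelled library. List medians stand beside 0.79 and 0.74 log2. The other integrin chains were mostly near the floor. Of 14 other alpha chains, 5 had a mean of at least 1 TPM, with 3 at least 2-fold higher with Klf4 and 0 lower as deposited, and 0 either way in the loss experiment (medians 1.29 and 0.25 log2). Itgav, a chain of vitronectin receptors, had the highest mean, at 5.44, 5.12, 7.24 and 9.78 TPM, and Itga5, of the fibronectin receptor, was at 1.27, 9.76, 0.579 and 0.69 TPM. Itgam, the myeloid alpha chain that pairs with Itgb2, was at 0.494, 3.76, 0.713 and 1.04 TPM. Of 6 other beta chains, 3 reached that mean, with 2 higher and 1 lower with Klf4 and 0 either way in the loss experiment (medians 2.63 and -0.05). Itgb5, an alphaV partner, was at 2.60 and 61.1 TPM in the gain experiment and at 2.20 and 2.08 TPM in the loss experiment, and thus exceeded Itgb1 and Itgb2 in the Klf4-transduced library. The beta chain that was lower with Klf4 was Itgb3, at 2.10, 0.125, 4.80 and 3.47 TPM.

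Talin, kindlin-3 and the small G protein Rap1 switch integrins to their binding form. Of 17 activation and adaptor genes at that mean, 3 passed 2-fold upward and 4 downward with Klf4 (median -0.05 log2, -0.85 relative), and 12 were higher and 2 lower in the cKO-labelled library (median 1.24, 0.50 relative). Rap1b was at 207, 278, 75.2 and 304 TPM, and Rap1a at 39.3, 46.6, 24.1 and 93.7 TPM. The 2 genes lower in the cKO-labelled library were Tln1, talin, at 18.0, 8.11, 47.1 and 16.1 TPM, and Rasgrp2, at 52.8, 12.7, 58.3 and 22.4 TPM. Both were also at least 2-fold lower with Klf4. Fermt3, kindlin-3, was at 37.1, 47.3, 37.4 and 42.0 TPM. Skap1, an adaptor that links the T cell receptor to LFA-1, was at 114 and 17.7 TPM in the gain experiment and at 52.5 and 165 TPM in the loss experiment. Ilk, a kinase-like adaptor on beta chains, was at 40.2, 135, 18.7 and 48.1 TPM.

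Many ligands of these integrins are made by other cells, and which cells their transcripts came from was not tested. Of 7 ligand genes at that mean, 6 passed 2-fold upward and 1 downward with Klf4, and 3 were higher and 0 lower in the cKO-labelled library (medians 1.69 and 0.87 log2). Vcam1, a ligand of alpha4 integrins, was at 5.59, 99.5, 4.27 and 8.64 TPM. Icam1 was at 10.4, 34.6, 6.38 and 19.8 TPM, and Fn1, fibronectin, at 5.39, 49.8, 2.15 and 5.80 TPM. The ligand gene that was lower with Klf4 was Icam2, at 23.6, 9.87, 3.01 and 15.3 TPM. The alphaE ligand Cdh1 was at most 0.781 TPM, and the alpha4-beta7 ligand Madcam1 was listed at 0 in all 4 libraries.

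Among 15 other Rgs genes, 8 had a mean of at least 1 TPM, with 3 at least 2-fold higher with Klf4 and 4 in the cKO-labelled library, 0 lower in either (medians 0.73 and 1.06 log2). Relative to the median gene 0 passed 2-fold either way in both comparisons. Rgs19 was at 69.6, 146, 16.5 and 54.6 TPM and Rgs16, induced on activation, at 30.8, 27.0, 37.3 and 113 TPM. Of 7 G alpha subunits at that mean, which RGS proteins act on, 6 were higher with Klf4 and 4 in the cKO-labelled library, 0 lower (medians 1.58 and 1.07 log2). Gnai2, the main Gi subunit of lymphocytes, was at 173, 424, 78.7 and 320 TPM.

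Of 13 other residency genes, 4 passed 2-fold upward and 3 downward with Klf4 (median -0.57 log2, -1.36 relative), and 5 were higher and 1 lower in the cKO-labelled library (median 0.85, 0.11 relative). Cxcr6, a chemokine receptor of resident cells, was at 65.8 and 23.3 TPM in the gain experiment and at 156 and 545 TPM in the loss experiment. Xcl1, a chemokine for cross-presenting dendritic cells, was at 1419, 485, 1130 and 1030 TPM. Bhlhe40, a transcription factor of resident cells, was at 84.7, 271, 60.2 and 174 TPM. Of the 10 egress and circulation genes at that mean, 4 were higher and 1 lower with Klf4, and 5 and 0 in the loss experiment (medians 0.19 and 1.10 log2). Klf2, which drives S1pr1, was at 20.2, 274, 18.7 and 33.6 TPM, and S1pr1, the exit receptor that CD69 holds back, at 0.497, 3.16, 0.975 and 1.73 TPM. Ccr7, a lymph node homing receptor, was at 286, 125, 21.7 and 121 TPM.

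TGF-beta is known to induce Itgae. Of 8 genes of its pathway at that mean (Tgfb1, receptors, Smads and Ski), 3 were higher with Klf4 and 1 in the cKO-labelled library, 0 lower. Their medians were 0.79 and 0.76 log2, which are 0.01 below and 0.02 above those of all genes. The receptor chain Tgfbr2 was at 2.63, 4.92, 5.22 and 11.1 TPM. The receptor chain Tgfbr1 was at 0.723, 1.44, 3.52 and 1.38 TPM, and thus lower in the cKO-labelled library than in control (-0.93 log2, -1.66 relative). Cd69, Rgs1 and Rgs2 are known to be induced early on activation. Of 12 immediate early genes, 10 were at least 2-fold higher with Klf4 and 7 in the cKO-labelled library, 0 lower. Junb, an AP-1 factor, was at 813, 2459, 244 and 711 TPM, and Dusp1, a phosphatase of MAP kinases, at 295, 1431, 82.4 and 225 TPM. In the gain experiment Cd69, Rgs1 and Rgs2 thus had differences of -0.15, 0.34 and -1.06 beside an immediate early median of 2.29, and in the loss experiment 1.75, 2.53 and 1.24 beside 1.43.

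**Figure D5:**
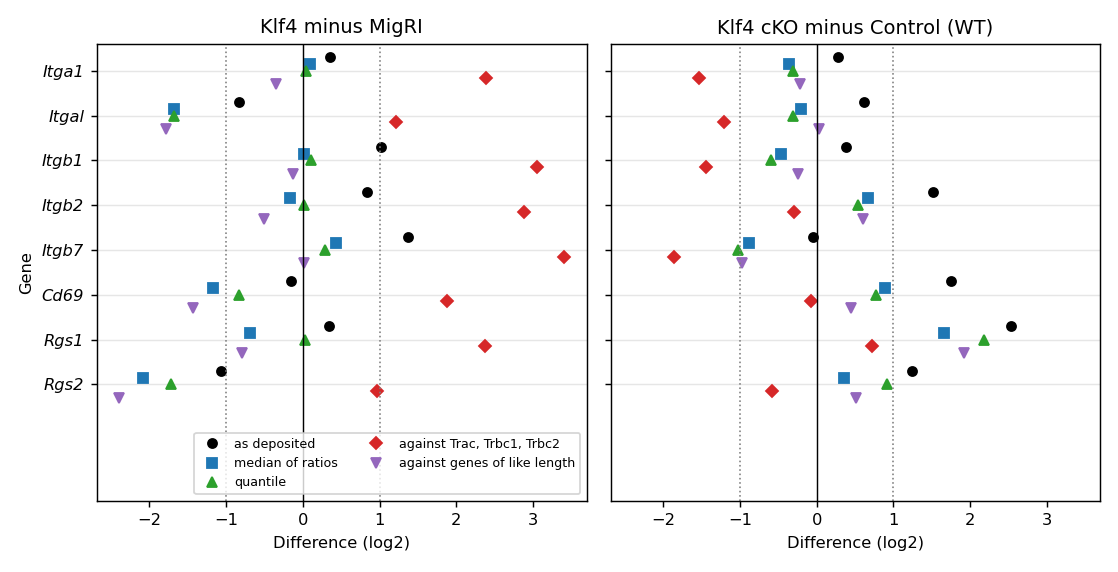
Difference (log2) of the 8 genes at a mean of 1 TPM or more, as deposited and under 4 other references, left for the gain and right for the loss experiment. Diamonds, against Trac, Trbc1 and Trbc2, lie right of the other symbols on the left and left of them on the right, and Rgs1 in the right panel is above 0 under all 5.

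The genes most like each member were found over the 2 comparisons among genes at a mean of at least 20 TPM, by the larger of the 2 gaps in log2 difference. For Itgb2 they were Hsp90ab1, a chaperone (gap 0.014), and Otub1 (gap 0.015). For Cd69 they were Tm2d1 and Rfxap (gaps 0.036 and 0.039), for Rgs2 Sra1 and Impa2 (0.037 and 0.044), and for Itgb7 Cald1, an actin-binding protein (0.042), and Pmpca (0.11). Itgal was nearest to Thoc7 and Med28 (0.063 and 0.073), Itgb1 to Ints11 and Csta2 (0.067 and 0.074), and Itga1 to Hif1a and Cfap36 (0.073 and 0.074). For Rgs1 the nearest were Psma1 and Med27, with gaps of 0.11 and 0.17. Over 2 comparisons of single libraries such likeness is a description.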

How the data were processed

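Gene-level TPM tables, 1 per library, were deposited by the authors; per the file headers the values are TPM. Per the labels' protocols, SMART-seq v4 was used on RNA extracted by TRI Reagent. The submitters' processing notes name mm10 and, with no role, edgeR, StringTie, HISAT2 and Trimmomatic. Tool versions and annotation: not given in the sources used here. TPM divides by transcript length and fixes the total, so abundant short transcripts lower other values: transcripts under 1000 nucleotides took 26.2% to 63.7% of TPM per library. Of 26 symbols turned into dates in the control table, 22 were mapped back by name. Differences of log2(TPM + 1) were computed with pandas 2.3.3. Simulated data with large differences put in checked the relative difference only, without length bias or genes near the floor. Lengths (longest coding transcript) and coordinates came from GENCODE vM21, with a length for 93.6% of genes at a mean of 1 TPM or more. Members and lists were chosen with earlier results of these data known. Named genes are all members, up to 4 of each other list with the highest mean TPM, and the 2 most alike in both differences. S1pr1, Cdh1, Madcam1, Foxp3, Xcr1, Clec9a, Cerkl, Ms4a2, Fcer1a and Kit were named after their values were seen. So were Tln1, Fermt3, Rasgrp2, Tgfbr1 and the genes beside Rgs1 and Itgal. Alternatives were other pseudocounts, filters, scalings and a length reference.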

Additional observations from a re-analysis of the deposited data

How the results depend on the processing

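The counts, medians and single differences of the members were recomputed under 8 alternatives (7 for Itga1, which a filter of 5 TPM removes). Ratios, chain sums, other lists and likeness were not. Other pseudocounts and filters cannot turn the sign of a single difference, so only the scalings and references could. For Klf4 over MigRI, the number of members at least 2-fold higher (2 as reported) was 1 with a pseudocount of 5, 0 with median of ratios scaling, quantile normalization or genes of like length as the reference, and 7 against Trac, Trbc1 and Trbc2. The number lower (1) was 3, 2, 3 and 0 in the same order of the last 4, and the median difference (0.35) was -0.43 with median of ratios scaling, -0.65 against genes of like length, 2.38 against the receptor genes, 0.021 with quantile normalization, 0.094 without a filter, and 0.60 and 0.21 with pseudocounts of 0.1 and 5. For the cKO-labelled library over control, the number higher (4) was 1 with median of ratios scaling, quantile normalization or the length reference and 0 against the receptor genes. The number lower (0) was 1 with quantile normalization and 4 against the receptor genes. The median (0.93) was 0.081 with median of ratios scaling, 0.12 with quantile normalization, 0.24 with the length reference and -0.89 against the receptor genes. Among differences of at least 1 log2, signs turned for Rgs2 with Klf4 (0.97), and for Itgb2 (-0.30), Cd69 (-0.069) and Rgs2 (-0.58) in the loss experiment, all against the receptor genes, and for Itgb1 with Klf4 against genes of like length (-0.12). Smaller differences turned under at least 1 alternative for Itga1, Itgal, Itgb2, Cd69 and Rgs1 with Klf4 and for Itga1, Itgal and Itgb1 in the loss experiment. The cause was not tested. Other filters and a pseudocount of 0.1 moved no count by over 1.5 times. No paired analysis was possible because each group holds 1 library. Depth is unknown.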

Other observations

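Rgs1 and Rgs2 lie in a cluster of Rgs genes on the minus strand of mm10 chromosome 1, with Rgs13 between them and Rgs21 and Rgs18 beyond Rgs1. The neighbours did not share their levels: Rgs13 was at most 0.102 TPM, Rgs21 was listed at 0 in all 4 libraries, and Rgs18 was between 0.275 and 1.56 TPM. Itgal lies on chromosome 7 upstream of Itgam, Itgax and Itgad, which pair with the same beta chain. Itgal was lower with Klf4 than in MigRI as deposited (but higher against Trac, Trbc1 and Trbc2), while Itgam and Itgax were higher, Itgax at 0.286 TPM in MigRI and 2.16 with Klf4.

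Per 1000 TPM of Trac, Trbc1 and Trbc2 together, Rgs1 was at 7.25 TPM in MigRI, 34.7 with Klf4, 84.0 in control and 141 in the cKO-labelled library. Cd69 was at 3.49, 11.9, 13.6 and 13.5 on the same scale. The scale itself differed between libraries: Trbc2 was at 13414, 3718, 1258 and 4194 TPM, and Trac at 1295, 274, 556 and 2164 TPM. By its own TPM, Cd69 was at 70.3 in MigRI, 63.2 with Klf4, 34.2 in control and 117 in the cKO-labelled library. For Cd69, the low value in MigRI on this scale is thus not a low level of the gene.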
